A study of Mus musculus with 4 samples.

Results

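Ion channels were examined in RNA-seq libraries of small intestinal group 3 innate lymphoid cells (ILC3s, tissue lymphocytes that make IL-22 and IL-17) with or without Brg1, the ATPase of a chromatin remodelling complex encoded by Smarca4. The genes were taken by symbol alone, as protein-coding genes that start with Kcn (potassium channels), Cacn (voltage-gated calcium channels), Clcn (chloride channels and exchangers) or P2rx (ATP-gated channels), or with Orai, Scn (voltage-gated sodium channels), Trpc, Trpm or Trpv and a digit. The rule gave 176 genes of 21963 protein-coding genes and 53379 genes in all, and 34 of the 176 had a mean FPKM (fragments scaled to transcript length and library size) above 1 in either group and were tested. The symbol rule also takes accessory subunits, which form no pore of their own, and the unrelated genes Trpc4ap and Trpc5os.

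The cells came from mixed bone marrow chimeras. Marrow of Thy1.2 Rag1-/- Smarca4 f/f donors (Brg1-sufficient) and of Thy1.1 Thy1.2 Rag1-/- Smarca4 f/f donors that also carried a Cre transgene (Brg1-deficient), in equal cell numbers, was given together to Rag2-/- Il2rg-/- recipients after sublethal irradiation, and lamina propria cells were taken 6 to 7 weeks later. Cells with high Thy1.2 and low CD45 were sorted by the absence or presence of Thy1.1, and 2 libraries were sequenced for each group. Both groups lacked Rag1 and carried the floxed Smarca4 alleles, and they differed in the Cre transgene, which is also active in cells other than ILC3s, and in the Thy1.1 marker. The recipients lack T, B and innate lymphoid cells of their own but keep myeloid cells. Ages of the mice, and whether cells of several mice were pooled in a library, are not given in the sources used here, so the p-values measure the spread between these libraries.

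In lymphocytes, calcium enters mainly through Orai pores, which open when the sensors Stim1 and Stim2 report that the stores of the endoplasmic reticulum are empty. Potassium channels keep the membrane voltage negative and so maintain the driving force for that entry. P2X receptors open to extracellular ATP, which is released by stressed or dying cells, and Clcn proteins of endosomes and lysosomes exchange chloride for protons.

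Smarca4 itself measured 17.07 and 16.73 FPKM in Brg1-sufficient and 9.98 and 9.03 FPKM in Brg1-deficient cells (log2 fold change -0.77, SE 0.164, limma, Benjamini-Hochberg adjusted p = 0.153). The ILC3 list was expressed in each library, with Il23r from 208.97 to 267.72 FPKM, Kit from 242.10 to 285 FPKM and 0 of its 15 genes under the limit for testing. ILC2 markers (9 of 12 genes tested) summed to 268.03 and 136.07 FPKM in the Brg1-sufficient and to 30.46 and 30.94 FPKM in the Brg1-deficient libraries, and T cell markers (6 of 8 tested) to 105.33, 56.42, 30.43 and 33.42 FPKM in the same order. Both lists were highest in Brg1-sufficient library 1. B cell markers summed to 10.42 and 11.93 against 3.32 and 2.55 FPKM, epithelial markers to 11.91 and 12.73 against 27.64 and 26.63 FPKM, ILC1 and NK markers to between 320.03 and 656.65 FPKM, and myeloid markers to between 123.09 and 361.26 FPKM. The epithelial list did not move together. Of its 5 genes tested, Krt18 (2.02 and 3.48 against 15.72 and 12.92 FPKM), Krt8 and Cldn7 were higher in both Brg1-deficient libraries. Epcam was lower in both (1.5 and 1.79 against 0.68 and 0.54 FPKM), and Lgals4 overlapped between the groups. Krt8 and Cldn7 were tested through the Brg1-deficient mean alone, and Epcam through the Brg1-sufficient mean alone. Mast cell, stromal and muscle, endothelial, and neuronal and glial markers each summed to between 7.21 and 90.16 FPKM. In none of these lists was a gene at 0 in all 4 libraries. The depth of each library is unknown, since read counts were not used here, and the FPKM distributions of the libraries were already equalized as deposited.

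Most of the ion channel genes were silent or nearly so. Of the 142 genes not tested, 127 had a mean of at most 0.5 FPKM in both groups and 15 lay between 0.5 and 1 FPKM. Among the 127, 3 (Kcnk15, Kcne1l and P2rx2) were listed at 0 in each library. The highest of the 142 was Trpc1, at 1.09, 0.88, 0.48 and 1.10 FPKM. By family, 11 of 94 Kcn, 4 of 26 Cacn, 3 of 14 Scn, 5 of 9 Clcn, 3 of 7 P2rx, 3 of 3 Orai and 5 of 23 Trpc, Trpm and Trpv genes were tested. Of the 34 genes tested, 27 were above 1 FPKM in both groups. Another 4 (Cacna2d1, Kcnip3, Kcnma1 and Kcnn4) passed through the Brg1-sufficient mean alone and 3 (Kcnj13, P2rx1 and Trpm2) through the Brg1-deficient mean alone, so these 7 were bound to differ between the groups. None of these values tells fewer cells of a type from less RNA per cell.

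**Figure D1:**
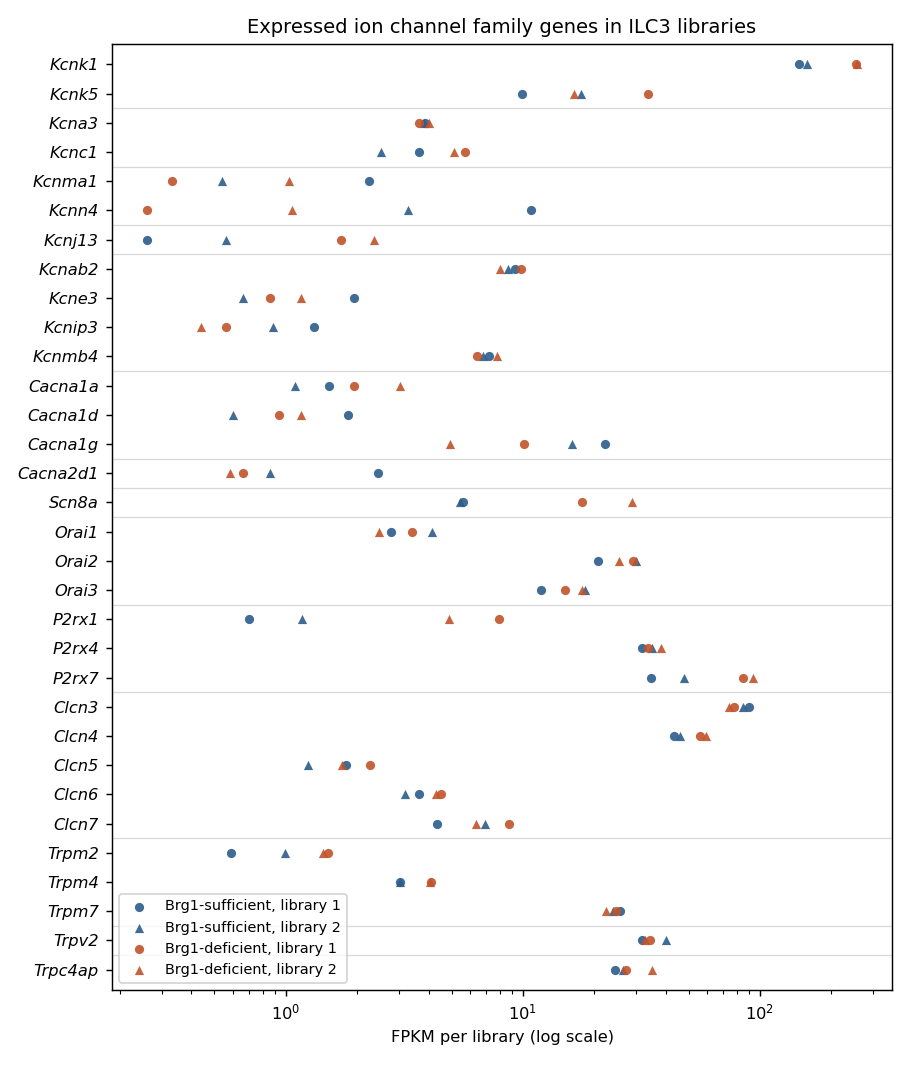
FPKM in each library (horizontal log axis) of ion channel family genes tested, grouped by kind of channel, with circles for library 1 and triangles for library 2 of each group. Kcnk1 is the rightmost gene in each library (146.01 to 256.49 FPKM), and Scn8a, P2rx1 and Kcnn4 show wide gaps between the Brg1-sufficient (blue) and Brg1-deficient (orange) libraries.

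In limma over the 14739 genes tested, 0 ion channel genes were lower and 0 were higher at an adjusted p under 0.05. Over all genes, 0.224% were lower and 0.0814% were higher by that rule. At an unadjusted p under 0.05, 3 of the 34 were lower in Brg1-deficient ILC3s (8.82%, beside 6.47% of all genes tested) and 7 were higher (20.6%, beside 6.12%). The lower genes include Kcnn4 and Cacna1g, and the higher genes were Scn8a, P2rx1, P2rx7, Kcnk1, Kcnj13, Kcnc1 and Clcn4. Of these, Kcnn4, P2rx1 and Kcnj13 passed the filter through the mean of a single group, so their place in the counts was partly set by the filter. Both libraries of one group lay above both of the other in 18 genes, of which 6 were lower (17.6%, beside 20.2% of all genes tested) and 12 higher (35.3%, beside 24.4%). The same holds here for Cacna2d1, Kcnip3 and Kcnn4 among the lower and Kcnj13, P2rx1 and Trpm2 among the higher. The shares over all genes come from the same filter, and the differences between the shares were not tested. The median log2 fold change was 0.13 for the 34 genes and 0.03 for all genes tested, and the median size of the change was 0.37 and 0.25. The smallest p of an exact two-sided permutation test is 0.333 in this design, so all calls depend on the variance that limma borrows from other genes. Fold changes are on the log2(FPKM + 1) scale, Brg1-deficient minus Brg1-sufficient, which understates the change of genes at low FPKM.

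**Figure D2:**
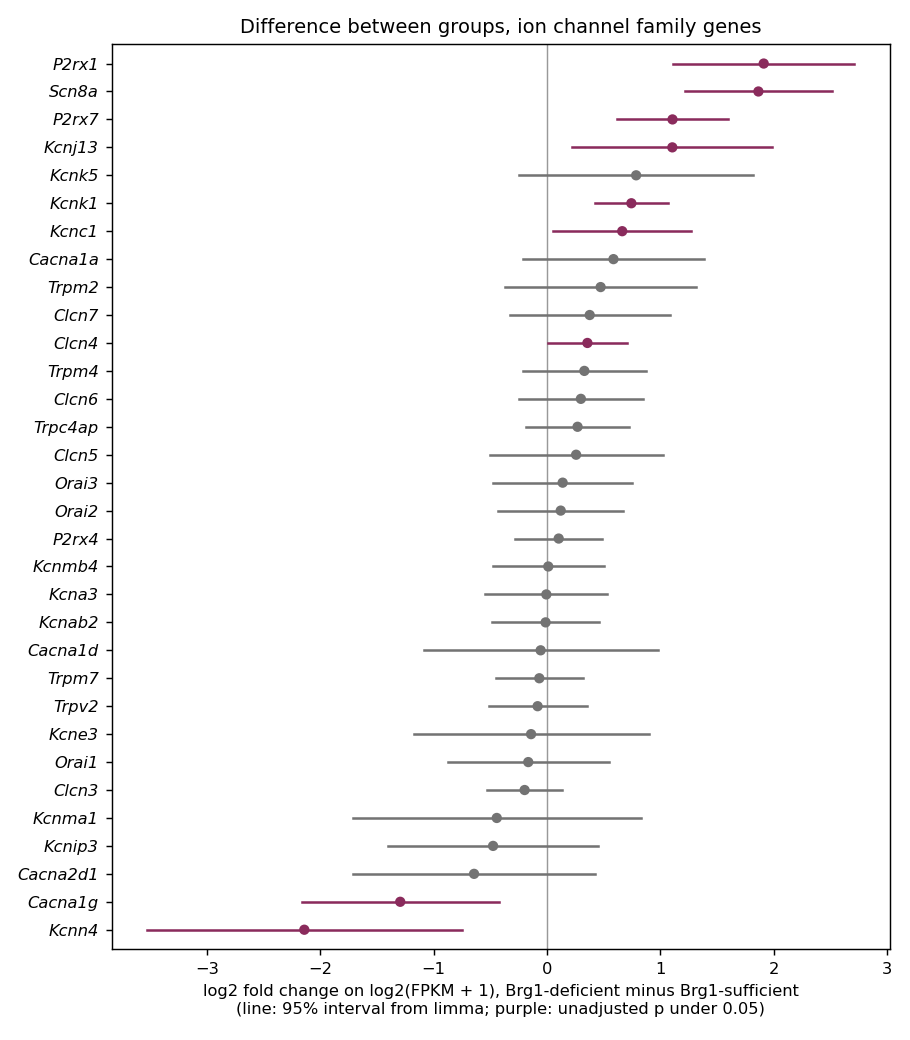
Log2 fold change on log2(FPKM + 1), Brg1-deficient minus Brg1-sufficient (horizontal axis), of ion channel family genes tested, with points for the estimate, lines for its 95% interval from limma, and purple for an unadjusted p under 0.05. The estimates run from -2.14 for Kcnn4 to 1.91 for P2rx1, and no gene passed the adjusted threshold.

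Among potassium channels, Kcnk1 carried most of the signal. It encodes TWIK-1, a K2P channel of the kind that gives background potassium leak. The genome sequence just upstream of its start is shown because it was the most abundant gene of the families. These and the sequences further on come from RefSeq on GRCm38.p6, run from 250 to 51 bases before the annotated start on the gene's strand, overlap no annotated exon, and were chosen after the values were seen. Capitals mark matches to any of 6 motifs on either strand, spelled out after the other sequences. The Kcnk1 window (chr8:125994852-125995051, plus strand) held no match:
Kcnk1: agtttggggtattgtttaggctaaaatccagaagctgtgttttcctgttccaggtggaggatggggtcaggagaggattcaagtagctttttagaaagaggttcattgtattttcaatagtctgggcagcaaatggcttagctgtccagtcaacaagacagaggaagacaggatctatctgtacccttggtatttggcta

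Kcnk1 lies on chromosome 8 from 125995170 to 126030685. It was at 146.01 and 157.89 FPKM in Brg1-sufficient and at 253.67 and 256.49 FPKM in Brg1-deficient cells. Both Brg1-deficient libraries were above both Brg1-sufficient libraries, a 1.68-fold difference of the means, and the gap was larger than the spread within either group. The log2 fold change was 0.74 (SE 0.129, 95% interval 0.42 to 1.07, Benjamini-Hochberg adjusted p = 0.108 from limma). Kcnk1 ranked first among the ion channel genes in each library and made up 69.4%, 72.7%, 77.1% and 80.7% of the summed FPKM of all Kcn genes, in the order Brg1-sufficient 1 and 2, Brg1-deficient 1 and 2. The other 93 Kcn genes together were at 64.38, 59.24, 75.47 and 61.32 FPKM, and there the groups overlapped. An antisense gene that overlaps Kcnk1, Gm45875, was at 0.96 to 1.97 FPKM.

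The remaining expressed K2P gene, Kcnk5 (TASK-2, a pH-sensitive leak channel), was at 9.95 and 17.51 FPKM in Brg1-sufficient and at 33.75 and 16.36 FPKM in Brg1-deficient libraries. Only Brg1-deficient library 1 stood high, and the groups overlapped (log2 fold change 0.79, 95% interval -0.25 to 1.82, adjusted p = 0.512). Without that library the log2 fold change was 0.29.

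The potassium channels best known from T cells are Kcna3 and Kcnn4. Kcna3 encodes Kv1.3, the voltage-gated channel of effector lymphocytes, and was at 3.87 and 3.82 against 3.64 and 4.02 FPKM. The groups overlapped, and the interval of the difference covers changes in both directions (log2 fold change -0.01, 95% interval -0.54 to 0.53, adjusted p = 0.993). Kcnn4 encodes KCa3.1, a calcium-activated potassium channel that T cells upregulate on activation. Its upstream window (chr7:24370013-24370212, plus strand), shown because Kcnn4 had the largest difference of the 34 genes, held 4 RUNX matches, at -226 to -221 and -213 to -208 on the plus strand and at -190 to -185 and -102 to -97 on the minus strand:
Kcnn4: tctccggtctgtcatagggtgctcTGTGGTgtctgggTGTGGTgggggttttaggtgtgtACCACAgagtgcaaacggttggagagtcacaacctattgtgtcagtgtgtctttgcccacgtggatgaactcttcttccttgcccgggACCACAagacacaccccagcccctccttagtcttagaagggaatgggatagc

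Kcnn4 lies on chromosome 7 from 24370263 to 24386690. It was at 10.77 and 3.29 FPKM in Brg1-sufficient and at 0.26 and 1.06 FPKM in Brg1-deficient cells. Both Brg1-sufficient libraries were above both others, but library 1 was far above library 2. The log2 fold change was -2.14 (SE 0.552, 95% interval -3.53 to -0.75, adjusted p = 0.221). Without Brg1-sufficient library 1 it was -1.41 (adjusted p = 0.447). The ratio of Kcna3 to Kcnn4, both in FPKM, was 0.359 and 1.16 in Brg1-sufficient and 14 and 3.79 in Brg1-deficient libraries.

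Markers of ILC2s and T cells moved in the same order of libraries as Kcnn4 in part. Ccr8 was at 51.74 and 8.41 against 0.23 and 0.24 FPKM, Il5 at 24.76 and 1.64 against 0.32 and 0.06 FPKM, and Klrg1 at 42.15 and 11.04 against 1.64 and 2.19 FPKM. All 9 ILC2 markers tested were lower without overlap in the Brg1-deficient libraries (beside 20.2% of all genes tested). Ccr8, Il5, Il4, Il9r and Il1rl1 passed the filter through the Brg1-sufficient mean alone, so their direction was partly set by it. Among ILC2 markers not tested, Bmp7 and Il13 were lower, and Ptgdr2 was higher (0.16 and 0.21 against 0.58 and 0.51 FPKM). Cd3g was at 37.19 and 10.74 against 1.21 and 5.04 FPKM, and Cd3e at 8.95 and 7.02 against 1.01 and 3.08 FPKM. The NK and NKp46+ ILC3 marker Ncr1 was at 31.32 and 35.54 against 5.37 and 6.02 FPKM. Ncr1 belongs to the ILC1 and NK list. Of the 10 genes of that list tested, 6 were lower (beside 20.2% of all genes tested) and 2 higher (beside 24.4%) without overlap. Among the lower, Prf1 passed the filter through the Brg1-sufficient mean alone. The higher were Gzma (50.77 and 102.83 against 397.13 and 217.71 FPKM) and Klrk1 (104.52 and 112.64 against 165.32 and 189.76 FPKM). Brg1-sufficient library 1 was the highest for Kcnn4, Ccr8, Il5, Klrg1, Cd3g and Cd3e. Donors and recipients lacked Rag1 or Rag2, which mature T cells need to form their receptors. The part of these cells in the Kcnn4 values was not tested.

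**Figure D3:**
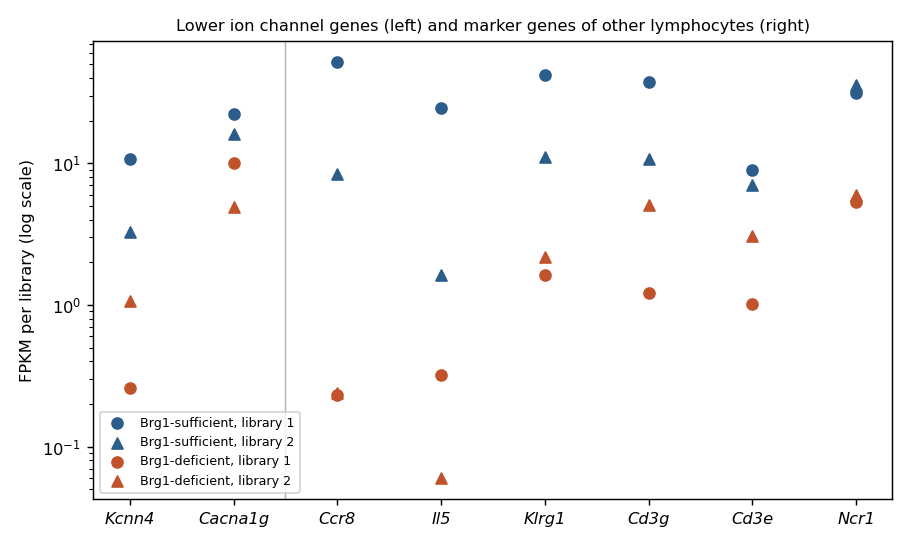
FPKM in each library (vertical log axis) of Kcnn4 and Cacna1g, left of the line, and of 6 marker genes, right of the line. The markers are Ccr8, Il5 and Klrg1 (ILC2), Cd3g and Cd3e (T cell) and Ncr1. Ncr1 marks NKp46+ ILC3s as well as NK cells and is highest in Brg1-sufficient library 2 (35.54 FPKM). Brg1-sufficient library 1 (blue circle) is the highest of the 4 for Kcnn4 (10.77 FPKM), Cacna1g (22.19 FPKM), Ccr8 (51.74 FPKM) and Cd3g (37.19 FPKM).

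Another pair of potassium channels at low levels stood higher in Brg1-deficient ILC3s. Kcnc1 (Kv3.1, a fast voltage-gated channel known from neurons) was at 3.65 and 2.53 against 5.71 and 5.14 FPKM (log2 fold change 0.66, SE 0.243, adjusted p = 0.362). Kcnj13 (Kir7.1, an inward rectifier known from epithelia) was at 0.26 and 0.56 against 1.71 and 2.36 FPKM (log2 fold change 1.11, SE 0.350, adjusted p = 0.302). In neither gene did the groups overlap, and neither passed the adjusted threshold. Kcnj13 lies on the strand opposite to Gigyf2, within that gene, and Gigyf2 was at 27.77 and 26.41 against 31.1 and 34.2 FPKM. Whether reads were counted by strand is not given in the sources used here, and overlap of the exons was not examined. Whether reads of Gigyf2 enter the Kcnj13 values was not tested.

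The large-conductance calcium-activated channel Kcnma1 was at 2.24 and 0.54 against 0.33 and 1.03 FPKM, with overlap. Its accessory subunit Kcnmb4 was the more abundant, at 7.20 and 6.81 against 6.41 and 7.78 FPKM (log2 fold change 0.01, 95% interval -0.48 to 0.50, adjusted p = 0.989). Kcnab2, the beta subunit of Kv1 channels, was at 9.29 and 8.62 against 9.78 and 8.03 FPKM (log2 fold change -0.01, 95% interval -0.49 to 0.46, adjusted p = 0.987). The groups overlapped in all 3. Of the other accessory genes, Kcne3 overlapped between groups (0.66 to 1.94 FPKM), and Kcnip3, a calcium-binding protein that also acts as a transcriptional repressor, was at 1.31 and 0.88 against 0.56 and 0.44 FPKM without overlap (log2 fold change -0.48, adjusted p = 0.631).

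In the calcium entry machinery, no difference between the groups was larger than the spread between libraries. Orai1, the pore best known from T cells, was the least abundant of the 3 Orai genes in each library, at 2.77 and 4.13 FPKM in Brg1-sufficient and 3.42 and 2.48 FPKM in Brg1-deficient libraries. Orai2 was the most abundant, at 20.76 and 29.93 against 29.21 and 25.36 FPKM, and Orai3 stood between, at 11.95 and 18.26 against 15.04 and 17.84 FPKM. All 3 overlapped between the groups, and their sum was 35.48, 52.32, 47.67 and 45.68 FPKM. The log2 fold changes were -0.17 for Orai1 (95% interval -0.88 to 0.55), 0.12 for Orai2 (-0.43 to 0.67) and 0.14 for Orai3 (-0.47 to 0.75), with adjusted p-values of 0.839, 0.849 and 0.843. Each interval covers changes in both directions. Stim1 was at 32.55 and 39.98 against 32.57 and 33.55 FPKM (log2 fold change -0.12, 95% interval -0.53 to 0.29). Stim2 was at 6.25 and 5.23 against 5.13 and 6.34 FPKM (log2 fold change -0.00, 95% interval -0.54 to 0.54). Both sensors overlapped between the groups.

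Other genes of calcium handling were given by a list of 63 gene symbols. It covers pumps, exchangers, release channels, the mitochondrial uniporter, calmodulin, calcineurin, NFAT and CaM kinases. Of these symbols, 62 were in the table and 47 were tested. In limma 0 were called in either direction at an adjusted p under 0.05. At an unadjusted p under 0.05, 2 of the 47 were lower (beside 6.47% of all genes tested) and 4 were higher (beside 6.12%). Without overlap, 11 were lower (beside 20.2%) and 7 higher (beside 24.4%), and the median log2 fold change was 0.01. Atp2b4, a plasma membrane calcium pump, was at 7.21 and 3.30 against 1.18 and 1.48 FPKM (log2 fold change -1.35). Itpr1, an IP3 receptor that releases stored calcium, was at 26.70 and 23.03 against 19.59 and 16.06 FPKM (-0.46). In both, Brg1-sufficient library 1 was the highest. Of the higher genes, Mcur1, a regulator of mitochondrial calcium uptake, was at 21.59 and 18.21 against 29.71 and 32.16 FPKM (0.62). Camk2b, a CaM kinase subunit, was at 0.82 and 2.97 against 5.81 and 4.89 FPKM (1.24), and Slc24a3, a sodium-calcium-potassium exchanger, at 1.18 and 1.65 against 3.91 and 4.65 FPKM (1.13). In each of these 3 genes the Brg1-deficient libraries were both above the Brg1-sufficient ones.

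Of the 3 P2X receptors tested, P2rx7 and P2rx1 had higher values in Brg1-deficient ILC3s and P2rx4 overlapped between the groups. Upstream windows of P2rx7 (chr5:122643677-122643876, plus strand) and P2rx1 (chr11:72998895-72999094, plus strand) are shown because both genes had an unadjusted p under 0.05. The P2rx7 window, at the first of its annotated starts, held an AP-1 match at -249 to -243 and a GC box at -90 to -85, both on the plus strand. The window at the second P2rx7 start, not printed here, held a T-box match at -141 to -135 on the plus strand and a ROR match at -192 to -187 on the minus strand, and the P2rx1 window held none:
P2rx7: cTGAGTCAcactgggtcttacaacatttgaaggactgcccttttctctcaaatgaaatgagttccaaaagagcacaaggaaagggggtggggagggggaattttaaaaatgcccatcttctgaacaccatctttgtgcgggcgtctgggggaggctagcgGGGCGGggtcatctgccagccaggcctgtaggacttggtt
P2rx1: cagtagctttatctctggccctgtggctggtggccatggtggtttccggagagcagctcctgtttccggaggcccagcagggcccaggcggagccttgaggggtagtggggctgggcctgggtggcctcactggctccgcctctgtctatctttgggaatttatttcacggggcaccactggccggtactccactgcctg

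P2rx7, a receptor that needs high ATP and is known for triggering inflammasome activation and cell death, lies on chromosome 5 from 122643911 to 122691432. It was at 34.77 and 47.87 FPKM in Brg1-sufficient and at 84.53 and 93.90 FPKM in Brg1-deficient libraries. The groups did not overlap, and the means differed 2.16-fold. The log2 fold change was 1.11 (SE 0.195, 95% interval 0.62 to 1.60, adjusted p = 0.110).

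P2rx4, a receptor that opens at lower ATP, starts 16111 bases past the end of P2rx7 on the same strand. It was at 31.80 and 34.96 against 33.72 and 38.21 FPKM, with overlap (log2 fold change 0.10, 95% interval -0.28 to 0.49, adjusted p = 0.810). The ratio of P2rx7 to P2rx4, both in FPKM, was 1.09 and 1.37 in Brg1-sufficient and 2.51 and 2.46 in Brg1-deficient libraries. The neighbouring genes were therefore near the same level in the Brg1-sufficient libraries and apart in the Brg1-deficient libraries, a difference between the genes that was not tested.

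P2rx1, a fast desensitizing receptor known from platelets and myeloid cells, lies on chromosome 11 from 72999103 to 73015200 and was at 0.70 and 1.17 against 7.92 and 4.86 FPKM. The groups did not overlap, and the means differed 6.83-fold, the largest ratio toward Brg1-deficient ILC3s among the 34 genes. The log2 fold change was 1.91 (SE 0.318, 95% interval 1.11 to 2.71, adjusted p = 0.104). Of the 14 myeloid markers tested, 3 were lower (beside 20.2% of all genes tested) and 1 was higher (beside 24.4%) without overlap, and 10 overlapped between the groups. Fcgr1 passed the filter through the Brg1-deficient mean alone, and the lower Itgam and S100a8 through the Brg1-sufficient mean alone. The higher marker was Fcgr1, at 0.60 and 0.80 against 2.48 and 1.71 FPKM. Lyz2, the most abundant, was at 84.11 and 202.51 against 64.44 and 191.92 FPKM, higher in library 2 of each group. The part of myeloid cells in the P2rx1 values was not tested. The other 4 P2rx genes were each at a mean of at most 0.505 FPKM.

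**Figure D4:**
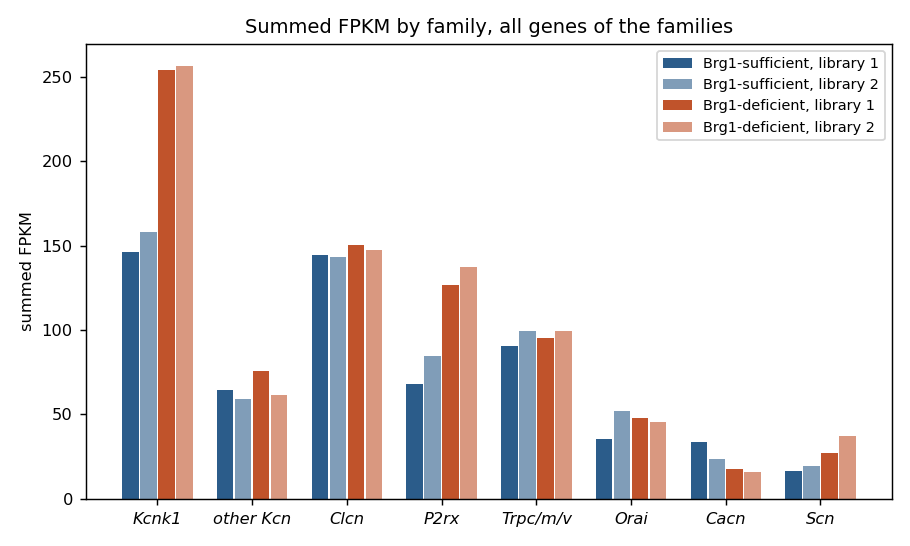
Summed FPKM of all 176 genes by family (vertical axis from 0), with Kcnk1 apart from the other Kcn genes, and 1 bar per library. Kcnk1 and P2rx are higher in both Brg1-deficient (orange) than in both Brg1-sufficient (blue) libraries, Cacn is lower, and Clcn lies between 142.97 and 150.33 FPKM in all 4.

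Voltage-gated sodium and calcium channels are known mainly from excitable cells, and few were expressed. The sodium channel pore Scn8a (Nav1.6) had the smallest adjusted p of the 34 genes. RefSeq gives Scn8a 2 starts. The window at the second (chr15:100936021-100936220, plus strand), not printed here, held a ROR match at -171 to -166 on the plus strand. The window at the first (chr15:100870395-100870594, plus strand), which lies inside the gene as GENCODE draws it, held no match:
Scn8a: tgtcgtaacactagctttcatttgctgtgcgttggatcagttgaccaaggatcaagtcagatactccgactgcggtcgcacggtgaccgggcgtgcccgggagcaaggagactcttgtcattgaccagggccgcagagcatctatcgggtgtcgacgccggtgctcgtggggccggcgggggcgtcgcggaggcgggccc

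Scn8a lies on chromosome 15 from 100869858 to 101045938. It was at 5.58 and 5.42 FPKM in Brg1-sufficient and at 17.82 and 28.80 FPKM in Brg1-deficient libraries. The Brg1-sufficient libraries were close together and both Brg1-deficient libraries were far above them, 4.24-fold by the means. The log2 fold change was 1.87 (SE 0.259, 95% interval 1.21 to 2.52, adjusted p = 0.0819). Where only genes with a mean above 5 FPKM in either group were tested, its adjusted p was 0.0424.

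Cacna1g (Cav3.1, a T-type channel that opens at low voltage) was the only calcium channel pore above 5 FPKM, and lies on chromosome 11 from 94408391 to 94474198. It was at 22.19 and 16.08 FPKM in Brg1-sufficient and at 10.08 and 4.94 FPKM in Brg1-deficient libraries. The groups did not overlap, and the means differed 2.55-fold (log2 fold change -1.29, SE 0.345, 95% interval -2.16 to -0.43, adjusted p = 0.229). Without Brg1-sufficient library 1, which was highest in ILC2 and T cell markers, the log2 fold change was -1.07. Without Brg1-deficient library 2 it was -0.84.

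The other Cacn genes tested were at low levels. Cacna1a, the P/Q-type pore of nerve terminals, was at 1.52 and 1.09 against 1.94 and 3.04 FPKM without overlap (log2 fold change 0.59, adjusted p = 0.521), and Cacna1d, an L-type pore, overlapped between groups (0.60 to 1.83 FPKM). Cacna2d1, an accessory subunit that brings calcium channels to the membrane, was at 2.44 and 0.86 against 0.66 and 0.58 FPKM (log2 fold change -0.64, adjusted p = 0.603). No other L-type pore or beta subunit reached a mean of 1 FPKM. The highest were Cacna1c at 0.49, 0.70, 0.59 and 1.21 FPKM and Cacnb2 at 0.35, 0.49, 0.70 and 1.04 FPKM.

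Chloride exchangers of endosomes and lysosomes were among the most abundant genes of the families. Clcn3 was at 89.83 and 84.57 against 77.98 and 73.86 FPKM, without overlap but with a small difference (log2 fold change -0.20, 95% interval -0.53 to 0.14, adjusted p = 0.605). Clcn4, the partner of Clcn3 in mixed dimers, was at 43.20 and 46.08 against 55.70 and 59.18 FPKM (log2 fold change 0.36, SE 0.138, 95% interval 0.01 to 0.70, adjusted p = 0.382). These closely related genes stood apart in opposite directions, and neither passed the adjusted threshold. Their family sum was within 142.97 and 150.33 FPKM in all 4 libraries. Clcn7, the lysosomal exchanger that osteoclasts need, was at 4.33 and 6.93 against 8.70 and 6.35 FPKM, with overlap (log2 fold change 0.38, adjusted p = 0.625). Clcn6, of late endosomes, was at 3.66 and 3.17 against 4.53 and 4.32 FPKM, and Clcn5, of early endosomes, at 1.79 and 1.24 against 2.27 and 1.73 FPKM. Of these only Clcn6 did not overlap (log2 fold change 0.30, adjusted p = 0.621).

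The most abundant Trp channels overlapped between the groups. Trpm7, a channel joined to a kinase that lymphocytes need for magnesium balance, was at 25.56 and 23.89 against 24.79 and 22.34 FPKM (log2 fold change -0.07, 95% interval -0.45 to 0.32, adjusted p = 0.882). Trpv2, a cation channel of many leukocytes, was at 31.70 and 40.11 against 34.50 and 32.77 FPKM (log2 fold change -0.08, 95% interval -0.52 to 0.35, adjusted p = 0.871). Trpm4, a sodium-permeable channel opened by calcium, was at 3.04 and 3.02 against 4.09 and 4.04 FPKM, and the groups did not overlap (log2 fold change 0.33, SE 0.217, adjusted p = 0.603). The pseudogene Rpl14-ps1 lies within Trpm4 on the opposite strand and was at 163.3 to 197.95 FPKM. Trpm2, opened by ADP-ribose and oxidants, was at 0.59 and 0.99 against 1.5 and 1.44 FPKM without overlap (log2 fold change 0.47, adjusted p = 0.616). Trpc4ap, which is no channel but part of a ubiquitin ligase, was at 24.50 and 26.48 against 27.21 and 35.11 FPKM without overlap (log2 fold change 0.27, adjusted p = 0.604). None of the 7 Trpc channel genes reached a mean of 1 FPKM.

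The motifs searched in the upstream windows were GGTGTGA (T-box), AGGTCA (ROR), TGTGGT (RUNX), CCGGAAG (ETS), TGANTCA (AP-1) and GGGCGG (GC box). RefSeq held windows for 29 of the 34 genes tested, 43 windows in all with alternative starts. The T-box motif was in 2 of these 43 (2.712% of all 32851 windows), ROR in 5 (11.38%), RUNX in 3 (11.56%), ETS in 1 (3.982%), AP-1 in 2 (5.574%) and the GC box in 16 (24.64%). A match describes the letters of a window, not binding, and no match says only that the letters are not in it.

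Channel genes outside the symbol rule were described by a list of 81 gene symbols (anoctamins and the Lrrc8, Clic, Mcoln, Tpcn, Piezo, Panx, Vdac, Hcn, Tmc and other families). Of these symbols, 79 were in the table and 36 were tested. In limma 0 were called in either direction at an adjusted p under 0.05, and at an unadjusted p under 0.05, 2 of the 36 were lower (beside 6.47% of all genes tested) and 4 were higher (beside 6.12%). The median log2 fold change was 0.20, and 2 were lower (beside 20.2%) and 16 higher (beside 24.4%) without overlap. Hvcn1, the voltage-gated proton channel of leukocytes, was at 16.46 and 18.95 against 29.93 and 37.99 FPKM (log2 fold change 0.90, adjusted p = 0.148). Mcoln2, a lysosomal cation channel, was at 21.83 and 28.17 against 41 and 46.19 FPKM (0.79), and Ano6, a scramblase and channel, at 10.76 and 10.70 against 14.69 and 15.97 FPKM (0.48). Ano1, a calcium-activated chloride channel that also marks intestinal pacemaker cells, was at 0.16 and 0.51 against 2.83 and 3.66 FPKM (1.67). Stromal and muscle markers summed to 12.54 and 15.47 against 19.06 and 18.51 FPKM, but that sum counts Ano1 itself. Of the 6 markers of that list tested, 3 were higher without overlap (beside 24.4% of all genes tested), Ano1 among them, and 3 overlapped. Ano1 and Lum passed the filter through the Brg1-deficient mean alone, so their direction was partly set by it. The most abundant of the list, Pdgfrb, was at 6.32 and 9.05 against 6.84 and 6.59 FPKM. The part of stromal and muscle cells in the Ano1 values was not tested. Of the lower genes, Tmem206, a proton-activated chloride channel, was at 7.01 and 9.72 against 4.94 and 4.74 FPKM (-0.67), and Clic4 at 32.94 and 36.70 against 27.51 and 19.30 FPKM (-0.57).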

How the data were processed

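The RNA-seq libraries of sorted ILC3s, 2 Brg1-sufficient and 2 Brg1-deficient, were grouped by the genotype in the labels. The authors mapped the reads with STAR (2.5 in the submitters' processing notes) to GRCm38.p5, quantified genes with RSEM (1.2), and deposited 1 FPKM value per gene and library, rounded to 2 decimals. The sorted FPKM values were nearly the same in the 4 libraries as deposited, so any difference in total RNA is absent from them, and no read counts were used here. A count test was therefore replaced by limma 3.58.1 in R 4.3.3 (lmFit, and eBayes with a trend) on log2(FPKM + 1), over the 14739 genes whose mean FPKM exceeded 1 in at least 1 group, adjusted over all of them by the Benjamini-Hochberg method, with a threshold of 0.05. Intervals are the 95% intervals of limma. The scripts were tested on simulated data.

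Named genes were those whose mean exceeded 5 FPKM in either group, those with an unadjusted p under 0.05, and 11 channels known from lymphocytes, 25 in all. Genes with means of 1 to 5 FPKM could also be named, and some genes that were tested and counted are not reported here by name. The members, the calcium handling and other channel lists and the marker lists were chosen with earlier results of these data known. GENCODE M21 (GRCm38) gave positions for all 176 genes, matched by identifier, and RefSeq (GRCm38.p6) gave the upstream sequences. Alternatives were a pseudocount of 0.1, no filter, a filter at 5 FPKM, no trend, quantile normalization, the replicate number as a block, and leaving out each library.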

Additional observations from a re-analysis of the deposited data

How the results depend on the processing

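With 2 libraries a group, 34 of 176 genes tested and unknown depth, small differences at low FPKM could not be resolved. Over all genes, the 33 lower and 12 higher calls became 0 and 0 without the filter on low FPKM (1400 and 1308 at an unadjusted p under 0.05 in limma), 0 and 0 in limma without the trend (965 and 903 unadjusted) and 73 and 41 with a mean above 5 FPKM. Each fit that left out 1 library, where the lone library is assumed to vary like the others, gave 0 and 0 (509 to 1331 lower and 521 to 1489 higher unadjusted). With a mean above 5 FPKM, 20 ion channel genes were tested and 1 was called higher (Scn8a, adjusted p = 0.0424).

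With the replicate block, 248 genes were called lower and 150 higher. Of the ion channel genes, 2 were called lower (among them Cacna1g) and 3 higher (P2rx1, P2rx7 and Scn8a), with log2 fold changes as without the block, and 1 other channel gene was called higher (Hvcn1). Neither the labels nor the methods say that the numbers pair the libraries, and across genes the deviations from the group mean correlated at -0.00039 between libraries of 1 number.

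The ion channel genes at an unadjusted p under 0.05 numbered 1 to 3 lower and 5 to 7 higher when a library was left out, with 1 lower without Brg1-sufficient library 1 and without Brg1-deficient library 2. Their median log2 fold change was -0.020 without the filter, where 173 genes were fitted, and 0.10 to 0.19 when a library was left out. Among the 25 genes chosen for naming, leaving out a library changed the sign for 8, all with overlapping groups. Their log2 fold changes then ranged from -0.062 to 0.051 (Kcna3), -0.14 to 0.12 (Kcnab2), -0.11 to 0.13 (Kcnmb4), -0.39 to 0.057 (Orai1), -0.13 to 0.38 (Orai2), -0.15 to 0.42 (Orai3), -0.14 to 0.0044 (Trpm7) and -0.25 to 0.082 (Trpv2). The causes were not tested. No other gene of these 25 changed direction under any alternative. For genes of the families named outside these 25, directions under the alternatives were not examined.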
